A study of Mus musculus with 6 samples.

Results

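Lower glycolysis and its red cell branch were followed through 9 genes, which carry out the steps from glyceraldehyde phosphate to lactate, together with the side step to bisphosphoglycerate: Gapdh, Pgk1, Pgam1, Bpgm, Eno1, Pkm, Pklr, Ldha and Ldhb. All noncontrol probes carrying one of these names on the array were taken (Pkm is printed there as Pkm2), which gave 18 of 55681 probes. Of these, 17 probes of 8 genes passed the filter for signal above background, out of 27016 on the whole array, and Ldhb had none.

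Lower glycolysis is the part of sugar breakdown that yields ATP. Gapdh makes the high-energy bisphosphate from which Pgk1 takes ATP, Pgam1 and Eno1 turn the product into phosphoenolpyruvate, pyruvate kinase takes ATP again, and lactate dehydrogenase turns pyruvate into lactate while restoring the NAD that Gapdh needs. Red cells have no mitochondria when mature and live on this pathway. In them Bpgm diverts part of the Gapdh product into bisphosphoglycerate, which makes hemoglobin release oxygen more easily, and pyruvate kinase is the Pklr form rather than the Pkm form of dividing cells. Several genes of this pathway are textbook targets of hypoxia-inducible factor, which binds DNA at a short core, ACGTG.

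The cells were G1E-ER-GATA-1, a mouse erythroid precursor line without its own GATA-1 that carries GATA-1 joined to the estrogen receptor's hormone-binding domain, so that estradiol switches it on and maturation begins. There were 3 samples given Foxo3 siRNA and 3 given nontargeting siRNA. In all 6, siRNA was electroporated at the start and again after 24 h, estradiol was added with the second dose, and total RNA was taken 24 h later, so no sample shows the cells without active GATA-1. Cy3-labelled RNA of each sample was hybridised alone to an Agilent array of 60-base probes, and the labels do not say that replicates were separate cultures, so the p-values rest on the spread among these 6 samples, which may be technical.

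The array level of a probe is given as the log2 of its processed signal minus the array's 75th percentile, so 0 is a probe at that percentile. The probe on the Foxo3 RefSeq transcript was at 18.6% of its nontargeting level in Foxo3 siRNA cells (log2 difference −2.42, SE 0.34, limma adjusted p = 0.00541, measured above background in Foxo3 siRNA cells by 2 of 3 arrays), while a second, brighter Foxo3 probe gave 0.25 (adjusted p = 0.259). By the rule of the brightest probe, used below for the members, Foxo3 was not called lower. No spot was saturated on any array. Spots well above background numbered 20343 to 37532 on the Foxo3 siRNA arrays and 31611 to 33513 on the nontargeting arrays. Foxo3 siRNA replicate 3 was the lowest, with surrogate values in 50.2% of its spots. All arrays lay on 1 slide, with Foxo3 siRNA replicate 1 and the 3 nontargeting arrays in row 1 and the other Foxo3 siRNA arrays in row 2.

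Most of lower glycolysis was higher in cells given Foxo3 siRNA, and Bpgm, the red cell branch, was lower. By the brightest probe of each gene, Pgk1, Pgam1, Eno1, Pkm and Ldha rose 2.00- to 3.24-fold, Bpgm fell to 68.9% of its nontargeting level, and Gapdh and Pklr did not pass the test. Counted by probe, 13 of the 17 rose (limma, adjusted p under 0.05 over all 27016 probes), 1 fell and 3 did not pass, against 12.2% of all probes called higher and 13.3% called lower. By gene, 5 of 8 rose and 1 fell, against 13% and 13.1% of all 19226 genes and unnamed features. The 3 arrays of Foxo3 siRNA lay wholly above the 3 nontargeting arrays for 13 of the member probes and wholly below for 1, against 21.4% and 28% of all probes. The median log2 difference was 1.03 over the 8 genes and −0.16 over all genes. In RNA from a bulk culture, fewer cells of a type and less RNA per cell cannot be told apart.

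**Figure D1:**
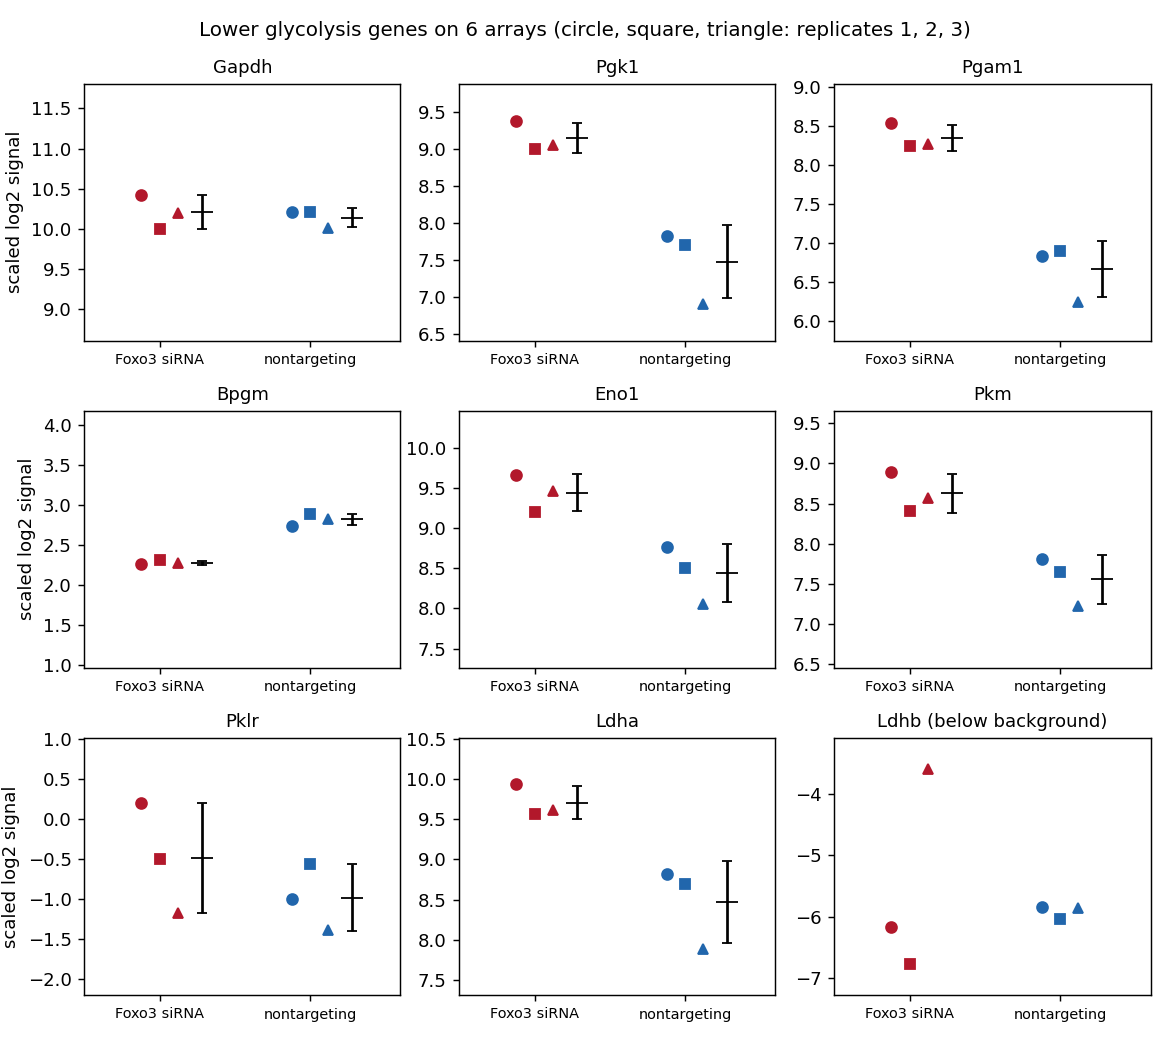
Scaled log2 signal of the brightest probe of each gene on 6 arrays, Foxo3 siRNA in red and nontargeting siRNA in blue, with the group mean and SD in black (n = 3 each). Pgk1, Pgam1, Eno1, Pkm and Ldha lie higher with Foxo3 siRNA on every array and Bpgm lower, while Gapdh and Pklr overlap; Ldhb was not well above background on any array and its points are drawn without mean or SD.

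Gapdh, the dehydrogenase that opens lower glycolysis and a customary reference gene for RNA measurements, had 8 probes, and its result turned on which probe was read. The brightest probe, a cDNA clone probe that the array design places at chr7:59003199-59003257 of mouse build mm9, read 10.42, 10.00 and 10.20 in Foxo3 siRNA replicates 1 to 3, against 10.21, 10.21 and 10.01 in the nontargeting replicates. These groups overlapped (log2 difference 0.07, SE 0.146, limma adjusted p = 0.742), and the sign turned when Foxo3 siRNA replicate 1 or nontargeting replicate 3 was left out. The next brightest, at chr6:125111869-125111928, overlapped too (0.13, SE 0.14, adjusted p = 0.496). The other 6 probes rose, by 0.67 to 1.46.

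The dimmest Gapdh probe, at chr6:125113312-125113371 and nearest the 5′ end of the gene, read 8.19, 7.73 and 8.07 in Foxo3 siRNA cells, against 6.67, 6.67 and 6.26 in nontargeting cells. Every Foxo3 siRNA array lay more than 1 log2 unit above every nontargeting array (log2 difference 1.46, SE 0.18, limma adjusted p = 0.00374). Its neighbour at chr6:125113229-125113288 read 8.96, 8.54 and 8.75 in Foxo3 siRNA cells, against 7.49, 7.60 and 7.07 in nontargeting cells, again without overlap (1.37, SE 0.186, adjusted p = 0.00491). The probe at chr6:125112979-125113038 rose by 1.00, the one placed at chr8:94212520-94212579 by 0.96, the one at chr6:125111848-125111866 by 0.93 and the one at chr6:125111878-125111937 by 0.67. The RefSeq gene lies on chromosome 6, so 2 of the 8 probes were designed on other chromosomes, and whether they read Gapdh copies elsewhere was not tested.

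Of the Gapdh probes, 3 share the stretch printed here in capitals, 18 bases long, and are shown because they gave unlike differences. Each line is 30 bases of a 60-base probe, as the deposited files give it, 5′ to 3′, in the order brightest to dimmest, with log2 differences of 0.07, 0.13 and 0.67.
Gapdh probe at chr7:59003199-59003257: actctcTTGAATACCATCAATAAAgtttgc
Gapdh probe at chr6:125111869-125111928: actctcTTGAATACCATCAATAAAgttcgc
Gapdh probe at chr6:125111878-125111937: attcttTTGAATACCATCAATAAAtttcgc
The windows differ from each other only at bases in lower case. By the coordinates of the array design, the windows of the chr6 probes cover the same bases. Their letters differ, so they cannot both match that place exactly. How well each probe matches the genome was not tested, nor was the part of mismatches in the unlike differences. The dimmest of the 3 read 9.82, 9.44 and 9.56 in Foxo3 siRNA cells, against 9.21, 8.95 and 8.66 in nontargeting cells, without overlap (0.67, SE 0.178, limma adjusted p = 0.0384).

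Across the 8 Gapdh probes the difference was smaller where the probe was brighter (Pearson r = −0.88, Spearman rho = −0.90). This is a description, since the probes share 6 RNA samples, 1 gene and partly the same bases. Probe brightness is a property of the probe as well as of the message, so levels of different probes are not amounts of RNA. Among the probes on chromosome 6 the 3 dimmest also lay nearest the 5′ end, and brightness and position cannot be told apart. The brightest Gapdh spots reached 61.7% of the scanner's saturation value.

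The same order appeared at Ldha, which makes the muscle-type subunit of lactate dehydrogenase. Its probe nearest the 3′ end, at chr7:54110937-54110996, was the brightest and read 9.94, 9.56 and 9.62 in Foxo3 siRNA cells, against 8.82, 8.70 and 7.89 in nontargeting cells (1.24, SE 0.265, limma adjusted p = 0.0202). The middle probe, at chr7:54107294-54107353, read 7.81, 7.47 and 7.53 in Foxo3 siRNA cells, against 6.13, 5.96 and 4.92 in nontargeting cells (1.93, SE 0.324, adjusted p = 0.00926). The dimmest probe, nearest the 5′ end at chr7:54103010-54103069, read 5.94, 5.43 and 5.82 in Foxo3 siRNA cells, against 3.94, 3.86 and 2.86 in nontargeting cells (2.18, SE 0.312, adjusted p = 0.00574). The groups were apart at all 3 probes, by 2.36-, 3.82- and 4.54-fold, and nontargeting replicate 3 was the lowest array each time. The call of the brightest probe was lost when Foxo3 siRNA replicate 1 was left out (1.12, adjusted p = 0.0533).

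Over the whole array, none of the 38 kept probes at a level of 10 or more was called higher and 15 were called lower. Their most positive difference was 0.30 and their median difference −0.50, so Gapdh and Aldoa lay above the median of probes this bright. Between levels 9 and 10, 27 of 196 probes were called higher and 20 lower, with a median of −0.24, and the largest rise was the 1.24 of Ldha. Between 8 and 9 the largest rise was 1.82, and between 6 and 8 it was 2.03. Aldoa, the aldolase that feeds lower glycolysis, had 1 kept probe, at level 10.57, and gave 0.04 (SE 0.15, limma adjusted p = 0.845). With quantile normalization both were called higher, Aldoa by 0.45 (adjusted p = 0.0252) and Gapdh by 0.45 (adjusted p = 0.0257). The part of probe brightness in the Gapdh and Aldoa values was not tested.

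**Figure D2:**
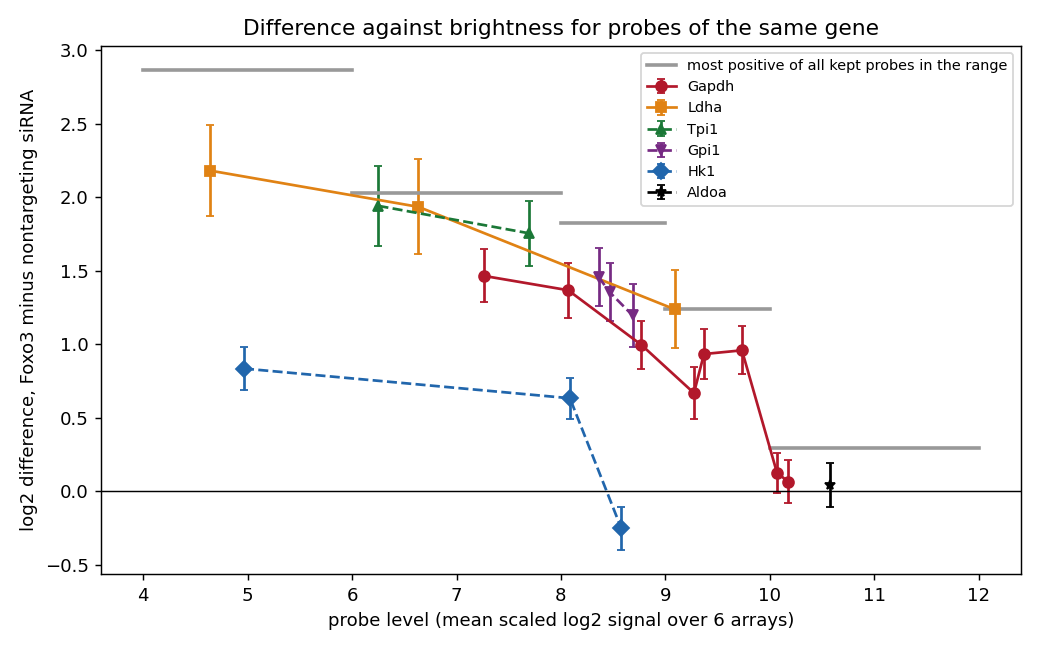
Log2 difference, Foxo3 siRNA minus nontargeting siRNA, with its standard error against the level of each probe (mean scaled log2 signal over 6 arrays) for Gapdh, Ldha, Tpi1, Gpi1, Hk1 and Aldoa. Grey lines mark the most positive difference of any kept probe in each range of levels, not the most negative; the 2 brightest Gapdh probes and Aldoa sit in the range where it was 0.30, and dimmer Gapdh and Ldha probes reach 1.46 and 2.18.

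Pgk1, the kinase that makes the pathway's first ATP, had 1 probe. It read 9.38, 9.0 and 9.05 in Foxo3 siRNA cells, against 7.82, 7.70 and 6.91 in nontargeting cells. The groups were more than 1 log2 unit apart, a 3.18-fold rise (1.67, SE 0.261, limma adjusted p = 0.00749). The array design places this probe at chr3:57906830-57906894, whereas the RefSeq gene is on the X chromosome, so what other copies it may read was not tested.

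Pgam1, the phosphoglycerate mutase of most tissues, gave the largest rise by brightest probe, 3.24-fold (1.69, SE 0.204, limma adjusted p = 0.00352). Its probe at chr19:41992898-41992957 read 8.55, 8.25 and 8.27 in Foxo3 siRNA cells, against 6.84, 6.90 and 6.25 in nontargeting cells. The lowest Foxo3 siRNA array was well above the highest nontargeting array.

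Bpgm, the mutase and synthase of red cell bisphosphoglycerate, was the only member called lower. Its probe at chr6:34454792-34454851 read 2.26, 2.31 and 2.28 in Foxo3 siRNA cells, against 2.74, 2.88 and 2.83 in nontargeting cells (−0.54, SE 0.102, limma adjusted p = 0.0137). The arrays of each group lay close together, and the groups were apart. The difference stayed negative but lost the call when arrays were scaled to their median (−0.23, adjusted p = 0.610) or to the spike-in controls (−0.15, adjusted p = 0.957), and when nontargeting replicate 2 was left out (−0.50, adjusted p = 0.0635). The median difference of all probes was −0.16 in the reported scaling, 0.15 with median scaling and 0.22 with spike-in scaling.

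Bpgm was also set against Pgam1 on the same array, which removes a shift common to all probes of that array. The log2 difference Bpgm minus Pgam1 was −6.07 ± 0.19 in Foxo3 siRNA cells and −3.84 ± 0.371 in nontargeting cells (SD, n = 3 each). The Foxo3 siRNA arrays gave −6.29, −5.94 and −5.99, against −4.10, −4.01 and −3.42 on the nontargeting arrays, so the groups did not overlap and the ratio was 4.70-fold lower. In an exact two-sided permutation test p was 0.1, the smallest that 3 against 3 can give, or 0.2 adjusted over the 2 pairs tested. The change in this ratio shows that the probes moved unequally, not which of them did.

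Eno1, the enolase of most tissues, read 9.66, 9.21 and 9.46 in Foxo3 siRNA cells, against 8.77, 8.5 and 8.06 in nontargeting cells, at chr4:149622928-149622987. The groups were apart, by 2.00-fold (1.00, SE 0.214, limma adjusted p = 0.02). The call was lost when Foxo3 siRNA replicate 1 (0.89, adjusted p = 0.0509), Foxo3 siRNA replicate 3 (0.99, adjusted p = 0.0514) or nontargeting replicate 2 (1.03, adjusted p = 0.0599) was left out.

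Pkm, the pyruvate kinase of dividing cells, read 8.89, 8.41 and 8.57 in Foxo3 siRNA cells, against 7.81, 7.65 and 7.22 in nontargeting cells, at chr9:59526867-59526926. The groups were apart (1.07, SE 0.201, limma adjusted p = 0.0134). The splice forms that this probe reads were not analysed here.

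Pklr, the pyruvate kinase of red cells and liver, read 0.20, −0.50 and −1.17 in Foxo3 siRNA cells, against −1.0, −0.56 and −1.38 in nontargeting cells, from a probe spanning chr3:88948907-88949425. The groups overlapped and the Foxo3 siRNA arrays spread over more than 1 log2 unit (0.49, SE 0.374, limma adjusted p = 0.336). The within-array difference Pklr minus Pkm was −9.11 ± 0.554 in Foxo3 siRNA cells and −8.54 ± 0.307 in nontargeting cells (SD, n = 3 each; exact two-sided permutation p = 0.2, adjusted 0.2 over the 2 pairs). Ldhb, which makes the heart-type lactate dehydrogenase subunit, was not well above background on any of the 6 arrays, so it has no fold and the planned comparison of Ldha with Ldhb was not made.

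**Figure D3:**
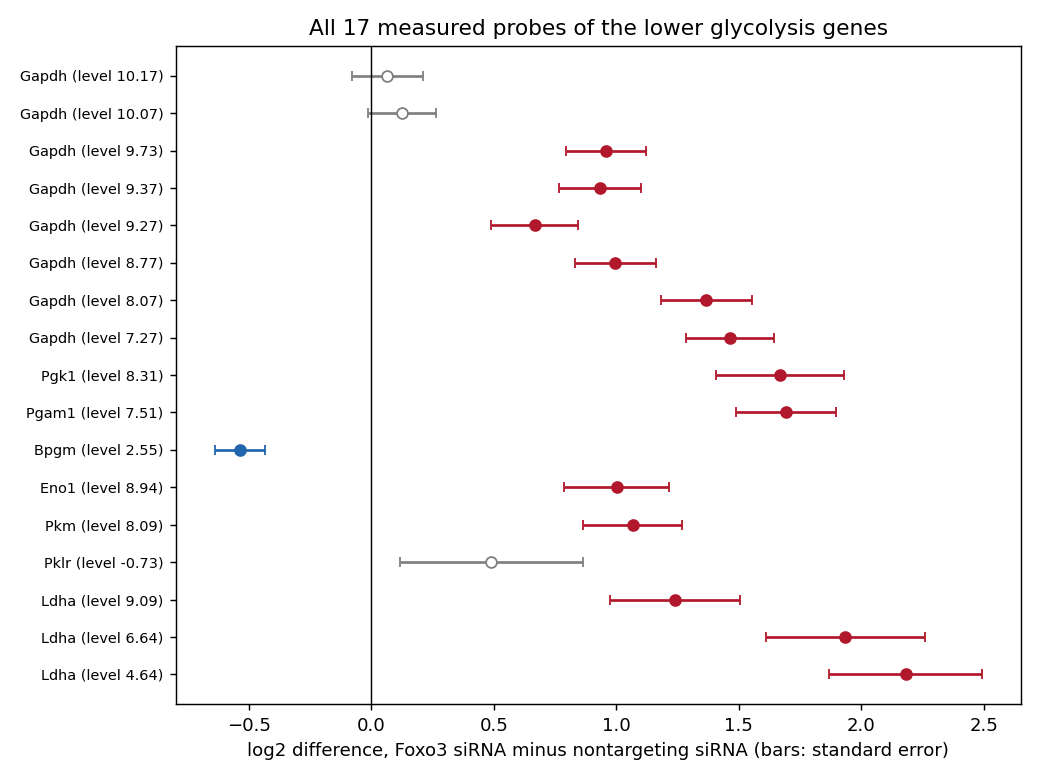
Log2 difference, Foxo3 siRNA minus nontargeting siRNA, with its standard error for each of the 17 kept probes, in pathway order and brightest first within a gene (level in brackets). Filled red points were called higher (13), the filled blue point lower (Bpgm) and open grey points did not pass.

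The member probes also shared an order among replicates. Foxo3 siRNA replicate 1 was the highest of its group at 16 of the 17 probes, against 42.3% of all probes, and nontargeting replicate 3 was the lowest of its group at 16 of 17, against 38.4%. Differences within slide row 1 rest on Foxo3 siRNA replicate 1 alone. With slide row as a block they were 1.91 for Pgk1 (limma adjusted p = 0.0483), 1.89 for Pgam1 (0.0293), 1.33 for Pkm (0.0476), 1.47 for Ldha (0.0888), 1.22 for Eno1 (0.0765), −0.56 for Bpgm (0.0857) and 0.28 for Gapdh (0.362). On the arrays of row 1 alone, with 1 Foxo3 siRNA array, the sizes are the same by construction. The other row holds no nontargeting array, so this is not a second check. In the authors' deposited table, 10 of the 14 called member probes were past 0.05 with the same sign.

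**Figure D4:**
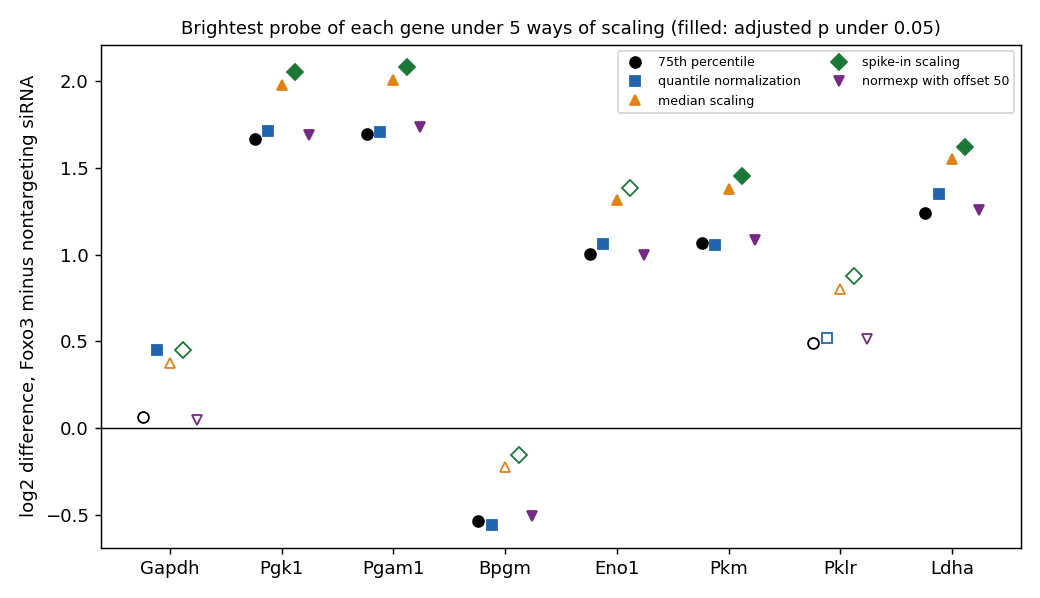
Log2 difference, Foxo3 siRNA minus nontargeting siRNA, of the brightest probe of each gene under 5 ways of scaling or background correction; filled symbols have an adjusted p under 0.05. Pgk1, Pgam1, Pkm and Ldha are called higher under all 5, Eno1 under all but spike-in scaling, Gapdh under quantile normalization only (0.45), and Bpgm loses its call under median and spike-in scaling.

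Promoters were read from RefSeq (GRCm38.p6) as the 250 bases before each transcript start, which gave 14 windows for the 9 genes. The core ACGTG, on either strand (ACGTG or CACGT, which overlap where CACGTG stands), was in 4 of the 14 windows, those of Pgk1, Pgam1, Ldha and Pkm, against 16.6% of 32851 mouse promoters. No member window held the forkhead motif GTAAACA, which 3.17% of all promoters hold, and 1 held the GATA motif AGATAA, against 9.99%. The windows of 4 members are shown in the direction of transcription, which is the plus strand for all 4: the members with the largest rises, which hold the core (capitals), and Bpgm, which fell and has none in its window. Eno1, which was called higher too, has no core in any of its windows, and neither have Gapdh, Pklr and Ldhb. A match of letters is not a binding site, and its absence here says nothing of the factor.
Ldha, chr7:46845554-46845803: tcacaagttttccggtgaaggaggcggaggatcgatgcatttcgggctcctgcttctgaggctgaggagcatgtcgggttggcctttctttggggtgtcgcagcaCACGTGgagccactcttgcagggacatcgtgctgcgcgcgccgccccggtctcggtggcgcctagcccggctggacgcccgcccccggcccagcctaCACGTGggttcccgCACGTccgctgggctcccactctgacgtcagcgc
Pgk1, chrX:106186850-106187099: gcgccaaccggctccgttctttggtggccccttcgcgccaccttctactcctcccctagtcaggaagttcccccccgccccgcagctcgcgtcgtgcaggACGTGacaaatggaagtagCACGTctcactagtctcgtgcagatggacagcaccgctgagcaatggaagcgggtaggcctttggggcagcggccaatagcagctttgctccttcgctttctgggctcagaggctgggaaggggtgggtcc
Pgam1, chr19:41911621-41911870: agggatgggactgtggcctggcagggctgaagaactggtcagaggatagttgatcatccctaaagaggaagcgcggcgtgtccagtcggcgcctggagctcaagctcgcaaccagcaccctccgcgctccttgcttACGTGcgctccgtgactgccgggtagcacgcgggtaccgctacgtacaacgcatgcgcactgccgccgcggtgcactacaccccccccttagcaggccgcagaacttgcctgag
Bpgm, chr6:34476106-34476355: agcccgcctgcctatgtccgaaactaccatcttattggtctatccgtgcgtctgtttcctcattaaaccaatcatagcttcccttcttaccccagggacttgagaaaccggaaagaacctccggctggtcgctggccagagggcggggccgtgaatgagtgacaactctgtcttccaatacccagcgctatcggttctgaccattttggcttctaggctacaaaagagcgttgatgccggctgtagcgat
Ldha's window holds the core at 3 places, Pgk1's at 2 and Pgam1's at 1, with the Ldha window taken at the more upstream of its listed starts. The window at Ldha's other listed start holds no core, and Pkm has it at only 1 of its listed starts.

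Several genes upstream of the members rose too. In the list for glucose uptake and upper glycolysis, 6 of 15 measured genes rose, none fell and 9 did not pass. Of all genes and unnamed features, 13% were called higher and 13.1% lower. The median log2 difference of the list was 0.51, against −0.16 for all genes. Slc2a1, a glucose transporter of most cells, rose by 1.71, and Hk2, an inducible hexokinase, by 2.20. Gpi1, the isomerase, rose by 1.20, the phosphofructokinases Pfkl and Pfkm by 1.66 and 1.27, and Tpi1, the triose isomerase, by 1.75. Hk1, the constitutive hexokinase, gave −0.25 at its brightest probe (limma adjusted p = 0.226) but 0.63 and 0.83 at dimmer ones (adjusted p = 0.0227 and 0.0110).

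Downstream, 2 of 7 carriers rose (median of the list 0.07): Slc16a3, which exports lactate, by 1.66, and Bsg, the partner that brings such carriers to the membrane, by 1.53. The other 5, among them the pyruvate carriers Mpc1 (0.07) and Mpc2 (0.05), did not pass. In the pyruvate dehydrogenase list 5 of 10 rose and 1 fell (median 0.37). Against both lists, 13% of all genes and unnamed features were called higher and 13.1% lower. Pdk1 and Pdk3, kinases that switch the enzyme off, rose by 1.76 and 0.90, the subunit genes Pdha1, Dlat and Pdhx by 0.84, 0.51 and 0.47, and Pdk2, another kinase, fell by 1.46. The calls of Pdha1, Dlat and Pdhx were all lost when any 1 of Foxo3 siRNA replicate 2 or 3 or nontargeting replicate 1 or 3 was left out (adjusted p from 0.0546 to 0.1), which leaves 2 of 10 called higher.

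Other branches were read in the same way, against the same 13% of all genes and unnamed features called higher and 13.1% called lower. Of 2 side phosphatases (median 0.44) Pgp, a phosphatase of glycolytic side products, rose by 1.02, and Minpp1 gave −0.15. In the pentose phosphate pathway 3 of 7 genes rose (median 0.48). Pgd, Pgls and Rpe rose by 0.53, 0.58 and 0.48, and G6pdx, its first enzyme, gave 0.64 (adjusted p = 0.0532). All 3 calls were lost without Foxo3 siRNA replicate 2, Foxo3 siRNA replicate 3 or nontargeting replicate 1 (adjusted p from 0.0519 to 0.0862), which leaves 0 of 7. Of 5 measured tissue-restricted isoenzymes (median −0.37) only Pgam2, the muscle mutase, rose (1.49, above background on 2 of 3 Foxo3 siRNA arrays). Among 9 regulators (median 0.14) Egln1, an oxygen sensor that marks hypoxia-inducible factor for destruction, rose by 1.19 and Vhl by 0.45, Egln2 fell by 0.55, and Hif1a (0.19), Myc (0.14), Gata1 (−0.09) and Klf1 (0.14) did not pass. The call of Vhl was lost with any 1 array left out, and that of Egln2 without nontargeting replicate 2.

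**Figure D5:**
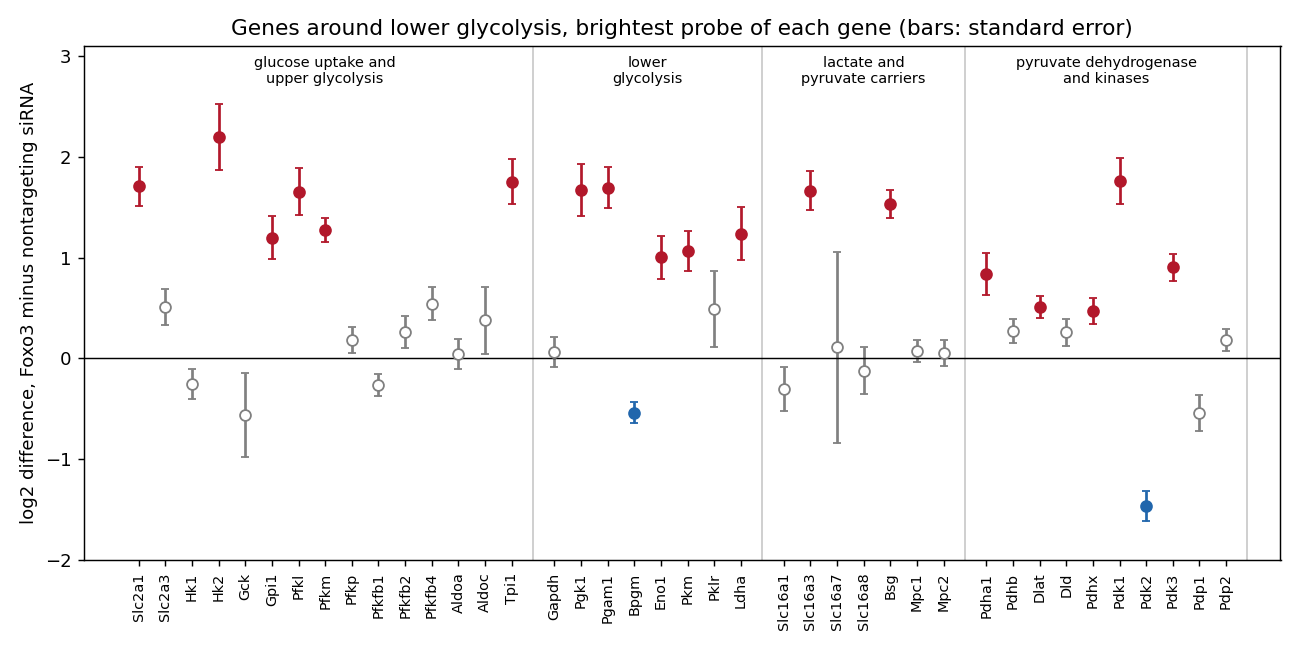
Log2 difference, Foxo3 siRNA minus nontargeting siRNA, with its standard error, by brightest probe, for genes of glucose uptake and upper glycolysis, lower glycolysis, carriers, and pyruvate dehydrogenase with its kinases. Filled red points were called higher, filled blue points lower and open points did not pass; Bpgm and Pdk2 are the 2 blue points.

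Over the 6 arrays the genes whose values ran most like Pgam1 were Pdk1 (Pearson r = 0.999), Fam162a (0.999) and Ccdc58 (0.998), with log2 differences of 1.76, 1.69 and 1.44. Those most like Bpgm were Ppm1a, Tepsin and Twsg1 (all 0.999), with −0.69, −0.32 (not past the test, limma adjusted p = 0.0549) and −0.80. These were picked from 12608 genes, and each correlation runs over arrays of 2 groups.

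Markers of the line and of other cell types were read on the same arrays. In 10 measured erythroid markers, 2 rose, Rhag by 1.40 and Tfrc by 0.60, and none fell. Over all genes and unnamed features, 13% were called higher and 13.1% lower. The sum of the erythroid markers' linear signals, each in units of the 75th percentile, was 3107 to 4028 in Foxo3 siRNA cells. In nontargeting cells it was 4326 to 4748. This sum rests mostly on the brightest markers, among them Hba-a1 (level 11.04) and Alas2 (level 9.70). Hba-a1 gave −0.46 and Alas2 −0.41, neither past the test. The median difference of all kept probes was −0.50 at level 10 or more and −0.24 between 9 and 10. The part of probe brightness in these sums was not tested. Megakaryocyte markers rose in 3 of 6 (Treml1 2.50, Itga2b 1.26, Gp1ba 0.59), with sums of 39.3 to 70.8 in Foxo3 siRNA cells, against 38.5 to 59.3 in nontargeting cells. None of the 4 myeloid, 3 lymphoid or 1 stromal markers measured passed, and Mpo, Lyz2 and Col1a1 were not kept. The myeloid sums were 18.6 to 19.2 in Foxo3 siRNA cells, against 21.5 to 38.9 in nontargeting cells (median log2 difference −0.53). The lymphoid sums overlapped, at 14.6 to 16.6 against 15.1 to 23.2. The stromal marker gave 0.197 to 0.202 against 0.212 to 0.314. The part of the markers in the members' results was not tested.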

How the data were processed

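The 6 samples were grouped by the siRNA in their labels. Per the file headers, Agilent Feature Extraction 10.7.3.1 produced the scanner intensity, with background subtracted, each array detrended and a surrogate value where a signal did not exceed background. The authors' deposited p-value, raw and adjusted, and log2 fold change came from limma, per the submitters' processing notes; their normalization is not given in the sources used here, and base 2 was read from a slope of 0.851 on the log2 differences computed here.

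Control spots (3671 of 62976 per array) and outlier spots were left out. Processed signals were taken to log2, spots of 1 probe were averaged after subtraction of each array's 75th percentile. Probes were kept (27016 of 55681) when all 3 arrays of either group read them well above background, and the brightest stood for its gene. Groups were compared without covariates with limma 3.58.1 (lmFit and eBayes, two-sided) in R 4.3.3, adjusted by Benjamini-Hochberg over all kept probes, and the fit was tested on simulated data. Within-array pairs had an exact permutation test. The number of arrays limits the precision.

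Named genes were all members, from each list those past 0.05 (at most 6), Aldoa, Tpi1, Foxo3 and the 3 genes most like Pgam1 and Bpgm; other genes were named after their values were seen. The members and lists were chosen with earlier results of these data known. Alternatives were quantile, median and spike-in scaling, normexp, 2 other filters, 2 probe rules, replicate and slide row blocks, leaving out each array and the authors' deposited table. Probe positions are mm9; promoter positions are GRCm38.p6.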

Additional observations from a re-analysis of the deposited data

How the results depend on the processing

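The limits are few arrays, an uneven slide layout and single probes for most members. Of 18 alternatives, 2 removed the call of Pgk1, Pgam1 and Pkm, 5 that of Ldha, 7 that of Bpgm and 8 that of Eno1, with no change of sign for these genes. With no filter on dim probes, which tests 55681 probes, no member was called. Gapdh by its brightest probe was called with quantile normalization (0.45, adjusted p = 0.0257) and by the mean of its kept probes (0.82, adjusted p = 0.0142), and turned negative without Foxo3 siRNA replicate 1 (−0.0425) or nontargeting replicate 3 (−0.0022), in a range of −0.0425 to 0.17 over arrays left out. Aldoa turned to −0.0655 and −0.0378 without those arrays, in a range of −0.0655 to 0.14, and was called with quantile normalization (0.45, adjusted p = 0.0252). The cause of these changes was not tested.

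Probes called higher numbered 3284, against 1033 with spike-in scaling, 415 with no filter, 1120 with slide row as a block, 565 on row 1 alone (where the lone Foxo3 siRNA array is assumed to vary as the nontargeting ones do), 734 in the authors' deposited table and 1818 to 2822 when an array was left out. Probes called lower numbered 3602, against 1158 with median scaling and 226 with spike-in scaling, 220 with no filter, 771 with the row block, 516 on row 1, 381 in the authors' table and 1532 to 3307 without an array; at the low end nontargeting replicate 2 was left out. The share of calls that were higher was 47.7%, against 77.4% with median and 82.0% with spike-in scaling, 65.4% with no filter, 59.2% with the row block and 65.8% in the authors' table.

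Members called higher numbered 5, against 0 with no filter, 3 with the row block, 0 on row 1, 3 in the authors' table and 3 to 5 without an array (3 without Foxo3 siRNA replicate 1). Members called lower numbered 1, against 0 with median or spike-in scaling, no filter, the row block, row 1 and the authors' table, and 0 to 1 without an array (0 without nontargeting replicate 2). Genes of the 7 neighbouring lists called higher numbered 20, against 12 with spike-in scaling, 3 with no filter, 12 with the row block, 6 on row 1, 9 in the authors' table and 13 to 17 without an array (13 without Foxo3 siRNA replicate 2 or 3). Those called lower numbered 2, against 1 with median scaling, 0 with spike-in scaling, 4 with normexp, 1 with no filter, the row block, row 1 and the authors' table, and 1 to 3 without an array (1 without nontargeting replicate 2).

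Same-numbered arrays did not deviate together (r = 0.164, −0.310 and 0.114 for replicates 1, 2 and 3). Arrays with unlike numbers gave r from −0.369 to 0.292. With 3 arrays in each group, this cannot settle whether the numbers pair the samples. With the replicate number as a block 3096 probes were called higher and 3803 lower, 5 members higher and 1 lower, and 19 and 4 neighbouring genes. This block changed no member's call. The ratio of Bpgm to Pgam1 stayed between −2.36 and −2.02 (log2) under quantile normalization, normexp and every array left out. The comparison of Ldha with Ldhb was not run, and averaging probes changes nothing where both genes have 1 kept probe.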
